A study of Mus musculus with 34 samples.

Results

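Ccl20 is 1 of the 84 inflammatory genes of a real-time PCR array that was run on lung RNA from 34 female C57BL/6 mice (C57BL/6J in the study's methods), with 1 array per mouse. All were 8 weeks old, no genetic change is named in the labels, and for 3 h they breathed filtered air (FA) or air with 2 ppm of ozone (O3). Their estrous stage at exposure was proestrus or estrus, together the follicular phase, or metestrus or diestrus, together the luteal phase. The FA groups held 6 proestrus, 6 estrus, 4 metestrus and 4 diestrus mice, and the O3 groups held 5, 3, 3 and 3 in the same order. Lungs were taken 4 h after exposure and homogenised whole, so the RNA came from every lung cell type. In such bulk RNA, a change in the number of cells that carry a transcript and a change in the amount per cell cannot be told apart.

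The files give plate positions without gene names. Ccl20 was placed in well A11, the only well whose difference of mean deposited fold changes in the follicular phase equalled the one printed for this gene, with a tolerance of 0.001. In the same way 17 of the 84 wells received a name, and in plate order the 17 names run alphabetically, with Ccl2 in A10 directly before Ccl20. The gene was chosen for its rise after ozone, and its well was found through the O3 and FA values of the follicular mice. The difference between O3 and FA mice is therefore given as a description, without a test. Comparisons of phases and stages within 1 exposure are other contrasts, and limma results are given for them. They share the follicular mice with the choice, which favoured a gene with high O3 follicular values, so those that involve follicular mice are not independent of it and their p-values only set a difference against the spread between mice. Metestrus against diestrus is the pair of stages free of those mice.

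Ccl20, also called macrophage inflammatory protein-3α, is a CC chemokine whose receptor is Ccr6, which is carried by Th17 cells, other IL-17-producing T cells, B cells and immature dendritic cells. In the airway it is made mainly by epithelial cells, at a low level at rest and at a high level after TNF, IL-1, IL-17 or bacterial products, through the transcription factor NF-κB. The gradient it forms draws Ccr6-bearing cells toward the mucosal surface. No well with a name here is a defining marker of lung epithelium, so the cell type that made the Ccl20 RNA was not tested.

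On the reference assembly GRCm38.p6, RefSeq places Ccl20 at chr1:83116766-83119167, on the + strand. The 250 bases before its start are shown because NF-κB is the known activator of the gene, beside those of Cxcl1, the gene whose level followed that of Ccl20 most closely in the O3 mice. Both sequences are those of RefSeq, 5′ to 3′, at chr1:83116516-83116765 (+ strand) and chr5:90890995-90891244 (+ strand). The capitals mark matches, on either strand, to the κB-like pattern of GGGA, any 4 bases and CC, a loose form of the NF-κB motif that was chosen after these sequences had been read.
Ccl20: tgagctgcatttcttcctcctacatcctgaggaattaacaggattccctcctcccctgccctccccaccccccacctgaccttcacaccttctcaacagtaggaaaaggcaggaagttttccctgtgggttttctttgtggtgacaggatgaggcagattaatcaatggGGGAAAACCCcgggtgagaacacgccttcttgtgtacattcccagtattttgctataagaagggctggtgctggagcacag
Cxcl1: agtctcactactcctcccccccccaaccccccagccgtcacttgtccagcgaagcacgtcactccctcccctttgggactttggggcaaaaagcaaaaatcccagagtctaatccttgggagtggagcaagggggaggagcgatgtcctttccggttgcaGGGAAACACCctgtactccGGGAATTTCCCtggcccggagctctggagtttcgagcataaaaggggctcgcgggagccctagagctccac
The Ccl20 window held 1 match, which starts 81 bases before the gene start, and the Cxcl1 window held 3, of which 2 overlap on opposite strands. Of 32851 mouse promoter windows of this length, 17.6% held at least 1 match. The letters TATAA were found once before Ccl20, starting 28 bases before the start, and in 22.8% of all windows. Neither TGANTCA, the AP-1 motif, nor TTGCNNAA, a C/EBP motif, was in the Ccl20 window, against 6.75% and 9.56% of all windows. A match of letters is not evidence of binding.

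Levels are given as -ΔCt, found by subtracting the threshold cycle (Ct) of Ccl20 from the mean Ct of the reference wells H1, H2, H3 and H5. The scale is log2, so that 1 unit is a 2-fold difference when amplification is complete. Ccl20 had a Ct in 31 of the 34 mice, and the 3 mice without one, all FA, were given a Ct of 40. The Ct values carry 3 decimals in 22 mice, 6 in 8 and more in 4, and 3 decimals were found in all 6 O3 luteal mice but in 3 of the 8 O3 follicular mice. Whether the number of decimals marks a plate or a run is not given in the sources used here. The array held 237 wells with no Ct among 2856 (8.30%).

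One ozone mouse stood apart. O3 diestrus replicate 2 had a Ccl20 Ct of 32.8, inside the range of the FA mice, whereas the Ct of the other 13 O3 mice ranged from 24.0 to 27.7. Cxcl1, a neutrophil chemokine, and Nos2, the inducible nitric oxide synthase, had no Ct in this mouse. Its -ΔCt of Il6, the pleiotropic cytokine, was -10.57, above the highest FA mouse at -13.24, and that of Cxcl2, another neutrophil chemokine, was -6.51, above the highest FA mouse at -7.70. Over the array, 26 of 84 wells were lower in this mouse than in every other O3 mouse, and 51 lay within the FA range. Its mean reference Ct, 22.4, was the highest of the O3 mice. Results that it moves are given with and without it.

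Air-exposed lungs held little Ccl20 RNA. In the 17 FA mice with a Ct, the Ct ranged from 30.3 to 34.4 with a median of 32.7. In FA proestrus the lowest -ΔCt was -12.87, the median -11.58 and the highest -9.53, and in FA estrus the values were -19.96, -12.19 and -10.83. The 4 FA metestrus mice were at -14.21, -13.48, -11.48 and -10.87. The 4 FA diestrus mice were at -19.49, -18.62, -11.11 and -11.11, and the lower pair had no Ct. The remaining mouse with no Ct was the lowest of FA estrus. The FA diestrus mice thus fell into a pair at the usual FA level and a pair below detection, and the pair with a Ct was also the pair whose Ct values had more than 6 decimals.

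Ozone-exposed lungs held far more. The 5 O3 proestrus mice were at -4.65, -4.53, -4.51, -4.31 and -3.82, and the 3 O3 estrus mice were at -5.23, -5.21 and -3.60. These 8 follicular mice spanned less than 2 log2 units, the tightest of the 4 groups of exposure and phase. The 3 O3 metestrus mice were at -6.04, -5.62 and -5.61. The 3 O3 diestrus mice were at -10.38, -7.41 and -6.02, and the first of these is the mouse described above. All 14 O3 mice had a Ct for Ccl20.

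**Figure D1:**
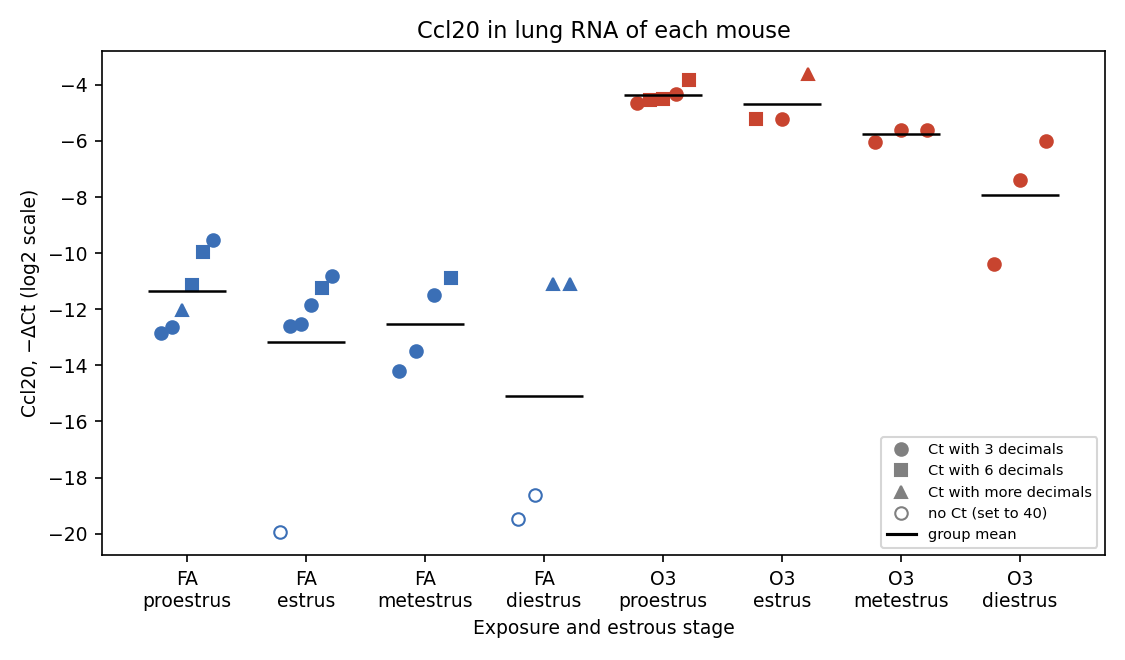
Ccl20 level of each of the 34 mice (vertical axis, -ΔCt, log2 scale) by exposure and estrous stage; points are mice, bars group means, open symbols mice with no Ct and symbol shapes the number of decimals of the Ct. The O3 mice sit between -10.38 and -3.60 and the FA mice between -19.96 and -9.53, and the 8 O3 follicular mice all sit above the 6 O3 luteal mice.

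In the follicular phase the mean -ΔCt was -4.48 ± 0.58 (SD, n = 8) with ozone and -12.26 ± 2.65 (n = 12) with air. In the luteal phase it was -6.85 ± 1.85 (SD, n = 6) with ozone and -13.80 ± 3.47 (n = 8) with air. The O3 mean was higher than the FA mean by 7.78 in the follicular and by 6.95 in the luteal phase. The median differences of the 84 wells were 0.29 and -0.12. Without O3 diestrus replicate 2 the luteal difference of Ccl20 was 7.65. Its place among the wells is not given as a result, because the gene was chosen for this contrast and because Cxcl5 in the follicular phase and Il6 in the luteal phase exceeded it when some single mice were left out. By stage, O3 exceeded FA by 6.99 in proestrus, 8.49 in estrus, 6.75 in metestrus and 7.14 in diestrus, the last being 8.37 without that mouse. With the wells with no Ct left out the phase values were 7.08 and 5.20, and diestrus fell to 3.17, since its FA mean then rested on 2 mice. On the linear scale of the deposited fold changes, relative to FA diestrus replicate 1, the O3 follicular mice were at 106 ± 43.4 (SD, n = 8) and the FA follicular mice at 0.907 ± 0.877 (n = 12), a ratio of means of 117. For the luteal mice the ratio of means was 52.2, from 28.7 ± 17.7 (SD, n = 6) in the O3 group and 0.551 ± 0.484 (n = 8) in the FA group.

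Every O3 mouse lay above every FA mouse in the follicular phase (8 above 12), which 8.33% of the 84 wells also showed, and in the luteal phase (6 above 8), which 2.38% showed. The same held within each stage, in which 10.7% (proestrus), 16.7% (estrus), 17.9% (metestrus) and 5.95% (diestrus) of the wells were so separated. Across stages the exposures overlapped, because O3 diestrus replicate 2 lay below 2 FA proestrus mice; 1.19% of the wells were separated over all 34 mice. Without that mouse the 13 O3 mice lay above all 20 FA mice, as did 2.38% of the wells. For those 13 O3 mice the separation did not need the reference wells: their highest raw Ct was 27.7 and the lowest FA Ct was 30.3. The mean reference Ct was 20.8 ± 0.85 (SD, n = 14) in O3 and 20.8 ± 1.18 (n = 20) in FA mice. O3 diestrus replicate 2, at a raw Ct of 32.8, was not separated in raw cycles from the FA luteal mice, whose lowest Ct was 30.7. Its separation in the luteal phase and in diestrus therefore did need the reference wells.

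**Figure D2:**
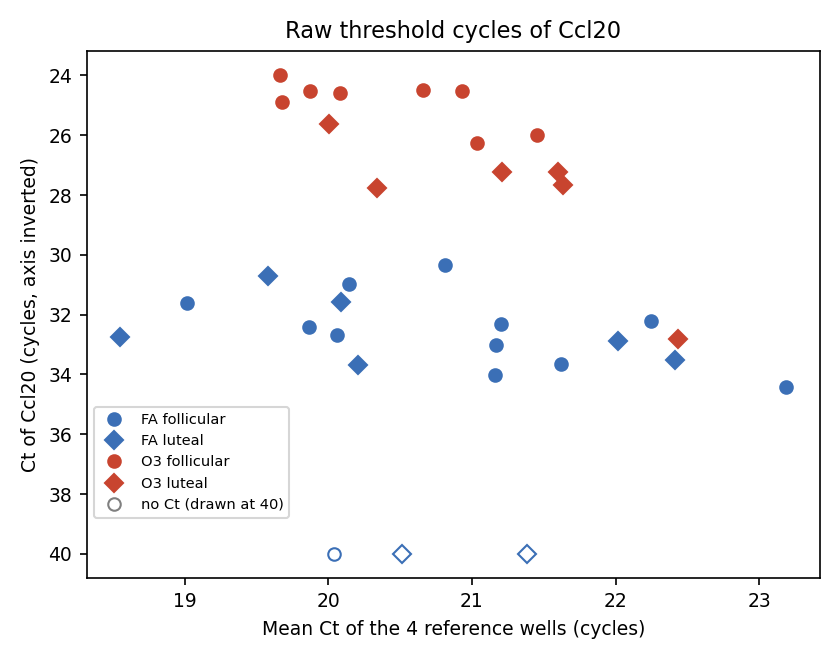
Raw Ct of Ccl20 (vertical axis, cycles, inverted so that more RNA is higher) against the mean Ct of the 4 reference wells (horizontal axis, cycles) for 34 mice; open symbols had no Ct and are drawn at 40. The O3 mice sit at Ct 24.0 to 27.7 apart from 1 luteal mouse at 32.8, and the FA mice with a Ct sit at 30.3 to 34.4 over the same range of reference Ct.

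Among the ozone mice, Ccl20 was higher in the follicular than in the luteal phase by 2.36 on the log2 scale. All 8 follicular mice (-5.23 to -3.60) lay above all 6 luteal mice (-10.38 to -5.61), a separation that 3 of the 84 wells showed (3.57%). Since the O3 follicular values entered the choice of the gene, this separation is a description. The limma test on all 34 mice gave a standard error of 1.28, a 95% interval from -0.25 to 4.98 and an adjusted p of 0.233, and so did not pass the false discovery rate (FDR) of 0.05, which 8.33% of the wells passed in this contrast. That fit uses 1 spread for all groups. For Ccl20 its residual SD was 2.46, against SDs of 0.58 and 1.85 in the O3 groups and 2.65 and 3.47 in the FA groups, which hold the 3 mice with no Ct.

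The limma call changed with the treatment of those 3 mice. With wells with no Ct left missing the difference of 2.36 had an adjusted p of 0.0178 (8.64% of wells called), with a Ct limit of 35 it was 0.0374 (7.14%), and in a fit of the O3 mice alone it was 0.0467 (8.33%). Without O3 diestrus replicate 2 the difference was 1.66, and 8 of 8 follicular mice stayed above the 5 luteal mice (limma adjusted p = 0.417). Within the 3-decimal mice, 3 of 3 follicular mice (-5.21, -4.65 and -4.31) lay above the 6 luteal mice, by 2.12 on average (limma adjusted p = 0.656). In that subset 4.76% of the wells were separated. With the number of decimals as a term the difference was 1.09 (limma adjusted p = 0.680).

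The reference wells moved with phase in the same mice. Their mean Ct was 20.4 ± 0.687 (SD, n = 8) in the follicular O3 mice, with 1 to 7 array wells lacking a Ct, and 21.2 ± 0.898 (n = 6) in the luteal ones, with 6 to 10. The reference mean thus differed by 0.78 cycles, and the raw Ct of Ccl20 by 3.15 cycles, from 24.9 ± 0.796 to 28.1 ± 2.46 (SD, same mice). Both gaps were smaller without O3 diestrus replicate 2. The luteal reference mean was then 20.96 ± 0.745 (SD, n = 5). The raw Ct of Ccl20 in those luteal mice ranged from 25.6 to 27.7, with a median of 27.2. The part of the reference wells in the difference was not tested. With H1 alone, H3 alone, 5 reference wells or the mean Ct of the array wells as reference, 8 of 8 follicular mice stayed above every luteal mouse. With H2 alone it was 7 of 8, and with H5 alone or with no reference 6 of 8. H2 had a Ct of 23.9 in O3 estrus replicate 1, the mouse with the highest -ΔCt of Ccl20, and was at 19.2 to 20.7 in the other O3 follicular mice.

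**Figure D3:**
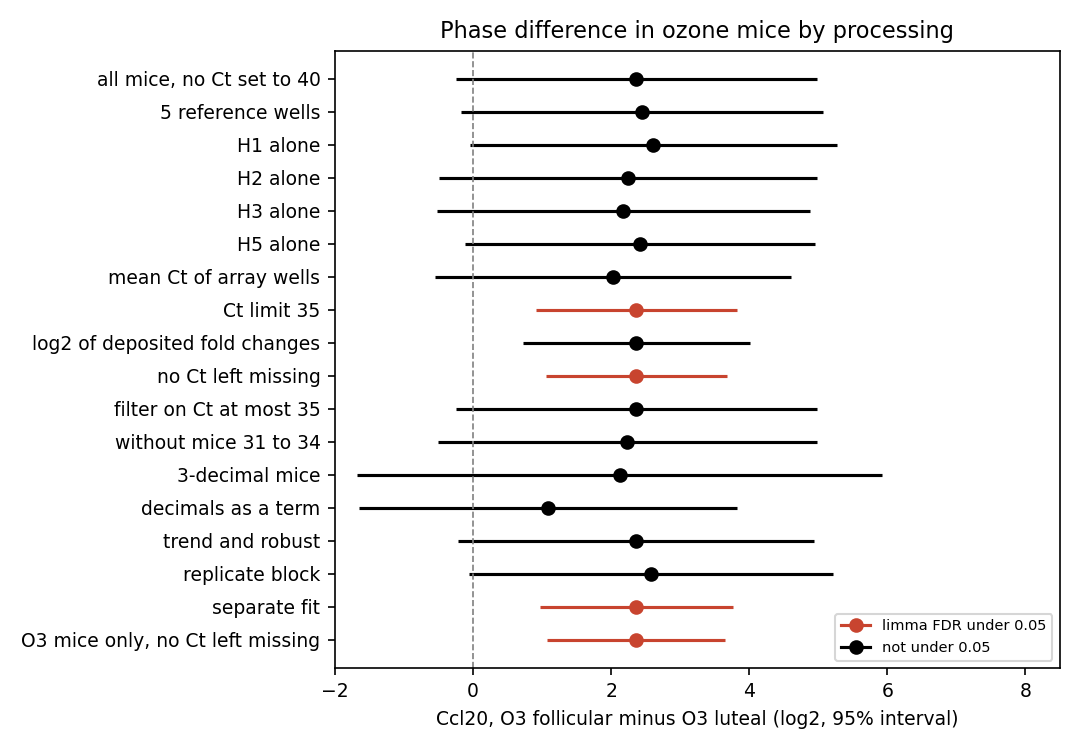
Difference of Ccl20 between O3 follicular and O3 luteal mice (horizontal axis, log2, point and 95% interval from limma) under each way of processing (vertical axis). The estimate stays near 2.36 in most, falls to 1.09 with the number of decimals as a term, and passes FDR 0.05 (red) where wells with no Ct are missing or set to 35 or where the O3 mice are fitted alone.

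Among the air mice no such separation was seen. FA follicular exceeded FA luteal by 1.53 (standard error 1.09, 95% interval -0.68 to 3.74, limma adjusted p = 0.982), and only 3 of the 12 follicular mice lay above every luteal mouse (exact two-sided permutation test, p = 0.281). The difference ranged from 0.72, without FA diestrus replicate 3, to 2.23, without FA estrus replicate 6, when single mice were left out, and was 0.84 without FA diestrus replicate 4; all 3 are mice with no Ct. By limma 0 of the 84 wells passed in this contrast, with 5 at an unadjusted p under 0.05. Among FA mice with a Ct, the means were -11.56 ± 1.13 (SD, n = 11) and -12.04 ± 1.43 (n = 6). Whether the rise after ozone depended on phase was tested as an interaction term. It was 0.83 on the log2 scale (standard error 1.68, 95% interval -2.59 to 4.25, limma adjusted p = 0.821). A permutation test with 100000 resamples, which shuffled phase within each exposure, gave p = 0.629. Its null is no phase effect in either exposure, so it does not test the interaction alone. The interaction passed FDR 0.05 in 0 wells by limma, with 19 at an unadjusted p under 0.05. The limma interval is wide enough to hold no difference as well as a difference larger than that between the O3 phases. The estimate moved both ways with the processing. It was 1.88 with wells with no Ct left missing (95% interval 0.08 to 3.68, limma adjusted p = 0.181), 1.66 with a Ct limit of 35 and 1.49 with the deposited fold changes, and it turned to -0.63 with the number of decimals as a term and to -0.48 in the 3-decimal mice. When single mice were left out it ranged from 0.12, without O3 diestrus replicate 2, to 1.64, without FA diestrus replicate 3.

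Ordered by mean -ΔCt, the 8 groups ran from O3 proestrus (-4.37 ± 0.33, SD, n = 5) through O3 estrus (-4.68 ± 0.93, n = 3), O3 metestrus (-5.76 ± 0.24, n = 3) and O3 diestrus (-7.94 ± 2.23, n = 3) to FA proestrus (-11.36 ± 1.39, n = 6), FA metestrus (-12.51 ± 1.59, n = 4), FA estrus (-13.17 ± 3.40, n = 6) and FA diestrus (-15.08 ± 4.60, n = 4). Within each exposure proestrus was highest and diestrus lowest. Among FA mice with a Ct this order was not kept, with diestrus highest at -11.11 and metestrus lowest at -12.51. The 12 pairs of stages within 1 exposure were compared. No pair of neighbours differed beyond its spread in the exact permutation tests: p was 0.607 between O3 proestrus and estrus, 0.1 between O3 estrus and metestrus, 0.2 between O3 metestrus and diestrus, 0.257 between FA proestrus and metestrus, 0.962 between FA metestrus and estrus, and 0.638 between FA estrus and diestrus. With 3 mice against 3 the smallest possible p is 0.1, which the separated O3 estrus and metestrus mice reached. The 3 O3 estrus mice all lay above the 3 O3 metestrus mice, by 1.08 on average. Metestrus exceeded diestrus by 2.18 in O3 (limma adjusted p = 0.849). In FA it did so by 2.57 (limma adjusted p = 0.851, exact permutation p = 0.371). The O3 value leans on O3 diestrus replicate 2. The other O3 diestrus mice were at -7.41 and -6.02, the latter inside the O3 metestrus range of -6.04 to -5.61.

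The O3 proestrus mice lay above all O3 metestrus mice, by 1.39, and above all O3 diestrus mice, by 3.57. Without O3 diestrus replicate 2 the latter difference was 2.35. Each exact permutation test gave p = 0.0357, the smallest possible with 5 against 3, and 0.214 after adjustment over the 12 pairs. The limma adjusted p for these 2 pairs was 0.739 and 0.176. The F-test of limma over the 4 stages gave an adjusted p of 0.522 in O3 (0.845 without O3 diestrus replicate 2), where 2.38% of the wells passed, and 0.996 in FA, where 0 wells passed and 3 had an unadjusted p under 0.05. In O3 with wells with no Ct left missing the adjusted p was 0.0317. In FA without the 4 mice numbered 31 to 34 in the labels it was 0.0493, since the 2 diestrus mice left were both without a Ct.

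Other genes of the same biology were compared between O3 and FA; the study had chosen them on these mice. The first list holds Cxcl1, Cxcl2 and Cxcl5, which draw neutrophils, and Il6, all of which respond to IL-17 and NF-κB as Ccl20 does. Their wells, like those of the second list, could be named because the study lists the genes as changed in the follicular phase of these mice, and Ccl17 also in the luteal phase. The follicular counts were therefore fixed by the choice and nothing is read from them. In the follicular phase 4 of 4 were higher after O3 at FDR 0.05 by limma (19% of all wells were), with a median log2 difference of 5.80 (0.29 over all wells). Il6 was higher by 7.44 (standard error 0.90), Cxcl5 by 7.69 and Cxcl2 by 3.02. Cxcl1 was higher by 4.15, from a mean of -13.57 in 12 FA mice (-16.22 to -10.99) to -9.42 in 8 O3 mice (-10.66 to -8.11). Il6 had no Ct in 7 of the 12 FA follicular and 5 of the 8 FA luteal mice, and Cxcl5 in 3 and 2, so the size of their rise depends on the value set for undetected wells. With a Ct limit of 35 the follicular value was 4.32 for Il6 and 5.22 for Cxcl5. In the luteal phase 3 of 4 rose, where 11.9% of all wells rose, with a median of 3.42 against -0.12. Il6 rose by 6.81, Cxcl5 by 4.01 and Cxcl2 by 2.83, and the luteal value of Cxcl1 was 1.88 (standard error 0.95, limma adjusted p = 0.143). With O3 diestrus replicate 2 left out, Cxcl1 rose by 2.88 (limma adjusted p = 0.0187), and the luteal value of Cxcl5 was 3.91 (0.0587). With all mice kept, Cxcl1 passed with a Ct limit of 35 (limma adjusted p = 0.0410), the deposited fold changes (0.0474) or wells with no Ct missing (0.0235). It passed with none of the other references. Cxcl5 also did not pass without FA metestrus replicate 2 (0.0588) or replicate 4 (0.0576), with H3 alone (0.0622) or with the deposited fold changes (0.0689). With a Ct limit of 35 its luteal value was 0.92 (0.407), and that of Il6 was 3.62.

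The second list holds the other CC chemokines with a named well: Ccl2 and Ccl7, which draw monocytes, Ccl11, which draws eosinophils, and Ccl17, which draws Th2 cells. In the follicular phase 4 of 4 were higher after O3, again by the choice of wells, with a median of 1.71: Ccl11 by 3.22, Ccl2 by 2.11, Ccl7 by 1.32 and Ccl17 by 1.21. With H3 alone as reference Ccl7 and Ccl17 did not pass (limma adjusted p = 0.0848 and 0.126). In the luteal phase 1 of 4 rose, with a median of 0.99. It was Ccl17, at 1.60 (standard error 0.34, limma adjusted p = 0.000821). The study also lists Ccl17 for the luteal phase of these mice, so this call too is not independent of the choice. The luteal values were 1.02 for Ccl11 (0.202), 0.95 for Ccl2 (0.102) and 0.42 for Ccl7 (0.527). In the 3-decimal mice Ccl2, at 1.16, and Ccl11, at 1.60, passed in the luteal phase as well. None of these genes passed in the interaction of exposure with phase, in which no well did.

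**Figure D4:**
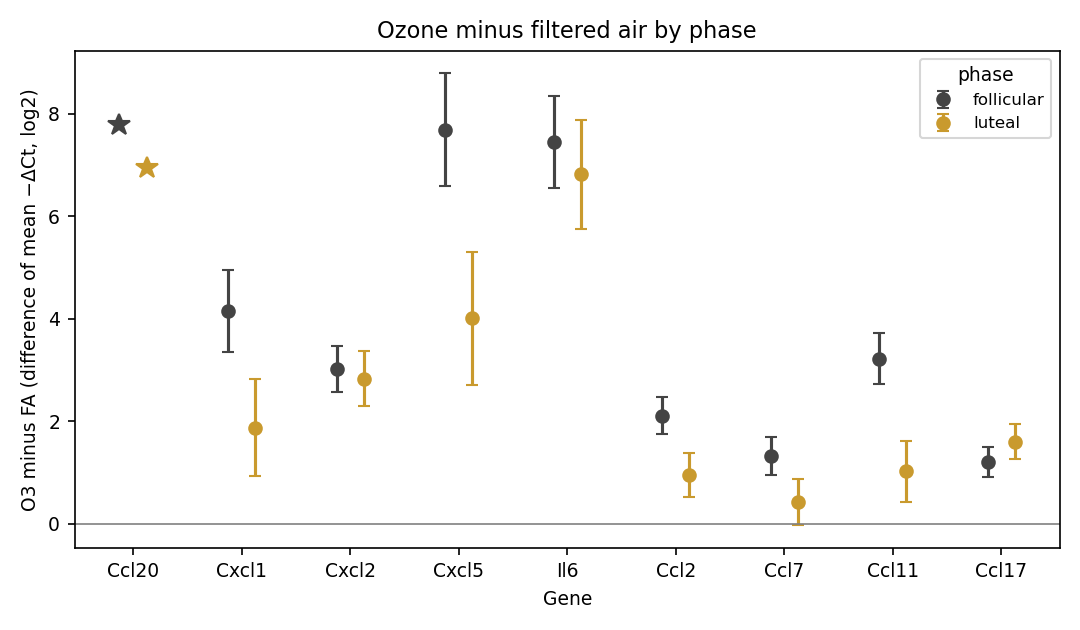
Difference of mean -ΔCt between O3 and FA mice (vertical axis, log2) for Ccl20 (stars, no error bar, since it was chosen for this contrast) and 8 other genes (points with the standard error of limma), in the follicular and luteal phases. Ccl20, Cxcl5 and Il6 lie at 7.44 to 7.78 in the follicular phase, and the CC chemokines other than Ccl20 lie at 0.42 to 3.22.

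The likeness of other wells to Ccl20 was measured by Pearson's r of -ΔCt and is a description: all values of a mouse share its reference Ct, its RNA and its array. Over all 34 mice the 5 wells with the highest r were, in order, Cxcl5, Cd14 (the co-receptor of lipopolysaccharide), Cxcl10 (an interferon-inducible chemokine), Cxcl2 and Il6; these r values are not given, because the O3 and FA mice form separate clusters. Over the 14 O3 mice the highest were Cxcl1 (r = 0.981), Cd14 (0.899) and the unnamed well D3 (0.870), and the median of the 83 other wells was 0.365. Without O3 diestrus replicate 2 the r of Cxcl1 was 0.941 over 13 mice and was still the highest, that of Cd14 was 0.772 with 7 wells higher, and the median was 0.367. In raw Ct, with no reference wells, it was 0.964 over the 13 O3 mice with a Ct of both genes. Within the 8 O3 follicular mice it was 0.775, with 11 wells higher and a median of 0.530. Over the 20 FA mice the r of Cxcl1 was 0.195, and the 3 highest wells, E3 (0.524), F5 (0.523) and E7 (0.515), have no name here.

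**Figure D5:**
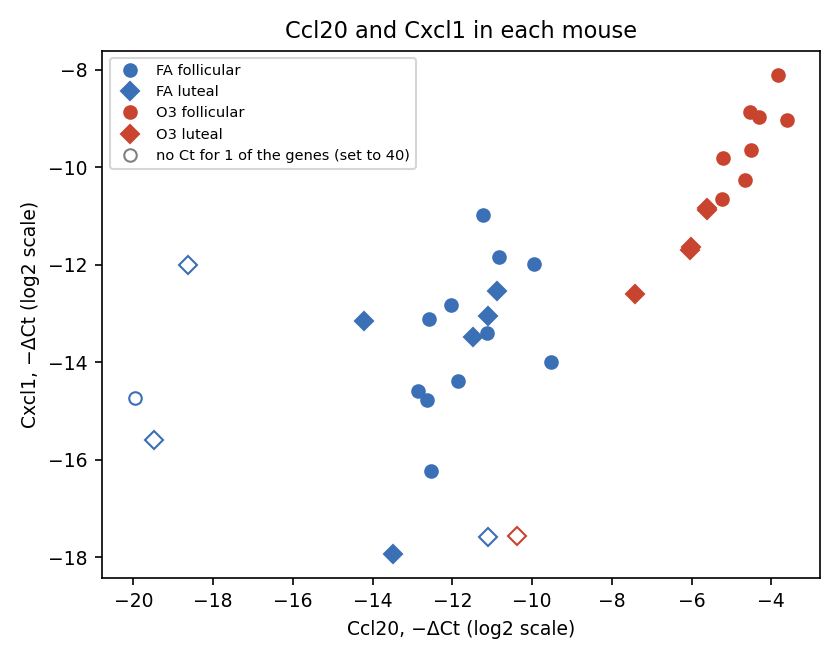
Level of Cxcl1 (vertical axis, -ΔCt, log2 scale) against that of Ccl20 (horizontal axis, same scale) in each of the 34 mice; open symbols had no Ct for 1 of the genes. The O3 mice lie along 1 rising band, with follicular mice at the upper end and 1 luteal mouse at FA level, and the FA mice are scattered (r = 0.195 over 20 mice).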

How the data were processed

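Lung RNA of 34 mice was measured by PCR array (RT2 First Strand Kit, 400 ng of RNA, QuantStudio 12K Flex). The authors deposited raw Ct values (cycles, not normalized, wells with no amplification undetermined) and a table of fold changes (ratio, 2 to the power of -ΔΔCt against 4 endogenous controls and 1 control sample); threshold settings and software version are not given in the sources used here. From the Ct values -ΔCt was computed as in the authors' normalization. The Ct of 40 for wells with none was set here and is not the authors' value. In the deposited fold changes such wells stand at a Ct below 40. Ct values hold no molecule counts, so no counting interval is given.

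Wells were named only by the match described above. limma 3.58.1 in R 4.3.3 was fitted to 84 wells and 34 mice, with 4 groups of exposure and phase or 8 of exposure and stage, two-sided, Benjamini-Hochberg FDR 0.05. Single values were compared by exact permutation tests in Python 3.11.15 with scipy 1.17.1, with the p values of the 12 stage pairs adjusted together. The limma step was also tested on data with known answers, for the O3 follicular minus O3 luteal contrast and a shift of 3 SD. Its behaviour with group SDs as unequal as those of Ccl20, or with wells with no Ct, was not tested. The named genes were Ccl20, the 2 lists, and the wells most like A11 (5 over 34 mice, 3 over O3, 3 over FA mice). The members, lists and tests were chosen with earlier results of these data known. Nothing in the labels says that mice of a group were exposed on separate occasions, so p-values measure the spread between these mice. Alternatives were other reference wells, other values for no Ct, a filter (83 wells kept), limma options, the number of decimals, the replicate block, subsets and each mouse left out. The fold changes served as an alternative.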

Additional observations from a re-analysis of the deposited data

Results flagged for a closer look

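FA estrus replicate 6 lay far below the other 5 mice of its group, at a Ccl20 -ΔCt of -19.957; it had no Ct for Ccl20 and was given a Ct of 40. Of the 8 groups of 4 to 10 mice examined, some of which share mice, this was the 1 so marked. The marked value comes from the Ct of 40 set here, so the usual chance rate of about 1 group in 20 does not apply.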

How the results depend on the processing

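The difference of Ccl20 between O3 follicular and O3 luteal mice kept its sign in every alternative run, at 1.66 to 2.61 when each mouse was left out. By limma 4 alternatives passed the FDR that the first fit missed, all at 2.36: the separate fit, wells with no Ct set to 35, such wells left out, and the O3 mice alone with such wells missing (adjusted p = 0.0241, added after the data had been seen). Another 13 did not pass, nor did any fit with 1 mouse left out. Each of the 4 left out the 3 FA mice with no Ct or changed their value. None of the 4 was run without O3 diestrus replicate 2. Exact permutation tests of this gene alone were not adjusted over wells and not independent of the choice of the gene. The exact permutation test of all O3 mice gave p = 0.000666 (2.36). An exact permutation test added later gave p = 0.0238 in the 3-decimal mice (2.12). Another exact permutation test added later, without O3 diestrus replicate 2, gave p = 0.00155 (1.66). Each p is the smallest possible, which full separation of the phases gives by itself. These p-values therefore restate the separation described in the Results and add no support to it. With the log2 of the deposited fold changes, in which wells with no Ct stand at a Ct below 40, the limma adjusted p of the O3 phase difference was 0.0553. The interaction turned to -0.17 without mice 31 to 34, -0.48 in the 3-decimal mice and -0.63 with decimals as a term; the cause was not tested. The FA stage range, 3.72, passed without mice 31 to 34 (7.83), and the O3 stage range, 3.57, passed with wells with no Ct missing (3.57). The O3 minus FA difference in diestrus moved from 7.14 to 3.17 with wells with no Ct missing, and to 11.12 without mice 31 to 34 or in the 3-decimal mice, since only FA mice with no Ct then remained. The CC chemokines called follicular were 2 of 4 with H2 alone, H3 alone or the 3-decimal mice, and the luteal ones 0 with H2 alone and 3 without mice 31 to 34, in the 3-decimal mice or with decimals as a term, alternatives added for the lists later. With the replicate number as a block, the O3 phase difference was 2.58 (limma adjusted p = 0.183), the interaction 0.43, and no call of Ccl20 changed. Of 14 pairs of mice with the same number and stage, 9 had deviations correlated above 0.1 (lowest -0.52, median 0.12, highest 0.38). Mice with different numbers were not compared, so this check does not settle whether the numbers pair the mice. The first fit did not pair them. The highest Ct of Ccl20 was 34.4, and the 3 FA mice with no Ct set only an upper bound on Ccl20.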
